A study of Mus musculus with 6 samples.

Results

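The AP-1 and immediate-early factors examined here were 10 genes chosen by symbol: Fos, Fosb, Fosl1, Fosl2, Jun, Junb, Jund, Atf3, Egr1 and Ier2. They were 10 of the 21949 genes in the deposited table and took up 12 of its 50660 transcript rows, and the rows of each gene were summed. RNA had been sequenced from acinar cells of the pancreas, sorted by flow cytometry from adult mice, as 3 cerulein and 3 control libraries, to compare these cells with and without pancreatitis. Cerulein is an analogue of the gut hormone cholecystokinin that drives acinar secretion past its normal range and provokes experimental pancreatitis. Mice of both groups had a CD1-enriched background and the genotype ElastaseCreER/ROSA26YFP, in which a Cre recombinase that tamoxifen activates is driven by the elastase promoter and a YFP reporter marks the cells in which it has acted. The cerulein group received 7 injections on each treatment day, on alternate days within 3 days, and then had 1 day of recovery. The labelled dose is not repeated because its unit cannot be right as written. In both groups the pancreas was digested and sorted before RNA was taken, and the labels do not say that each library came from a different mouse, and the p-values therefore describe variation among libraries that may be partly technical.

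AP-1 is a transcription factor made of pairs of basic leucine zipper (bZIP) proteins, usually a FOS-family protein (Fos, Fosb, Fosl1, Fosl2) with a JUN-family protein (Jun, Junb, Jund). FOS proteins need a partner to bind DNA, whereas JUN proteins can also pair with each other, and the pairs bind the sequence TGANTCA or the related cyclic AMP response element. Many of these genes are immediate-early genes, whose transcripts appear within minutes of a stimulus from ready-made factors and decay quickly, while Fosl1 and Fosl2 (the proteins FRA-1 and FRA-2) usually follow later and last longer. The same genes are known to be induced when tissue is digested into single cells, and both groups here went through digestion and sorting.

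The deposited values were FPKM (fragments scaled to transcript length and library size), from which 64 of the 72 values of these genes had lost their decimal mark, so that each could stand for up to 3 numbers a factor of 10 apart. The marks were restored from the whole numbers of fragments that FPKM values stand for, together with the other libraries of the group, at a posterior probability of at least 0.95 in each library. By this rule 8 of the 10 genes were restored in all 6 libraries and 2, Junb and Egr1, were not. The 8 restored genes were tested in a limma fit to log2(FPKM + 1) over all 5579 genes tested, with Benjamini-Hochberg adjustment over all of them and a threshold of 0.05. Control library 1 stood apart from the other controls in markers of fibroblasts, blood vessels and leukocytes, given further on, and the calls are therefore given with and without it.

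Of the 8 genes tested, 3 fell in cerulein (Fos, Fosb and Jund), 1 rose (Fosl1) and 4 did not pass (Fosl2, Jun, Atf3 and Ier2). The calls of Fos and Jund were lost when libraries were scaled to the sum outside acinar markers, as described further on, and those of Fosb and Fosl1 were not. With scaling by the median ratio of tested genes all 4 calls held. Of all genes tested, 15.1% passed, 7.01% as lower and 8.05% as higher. The median log2 difference of the 8 genes, cerulein minus control, was -0.76, against 0.07 over all genes tested. The values of the 2 groups did not overlap for 5 of the 8 genes (Fos, Fosb, Jun and Jund lower, Fosl1 higher), against 34.3% of all genes tested.

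**Figure D1:**
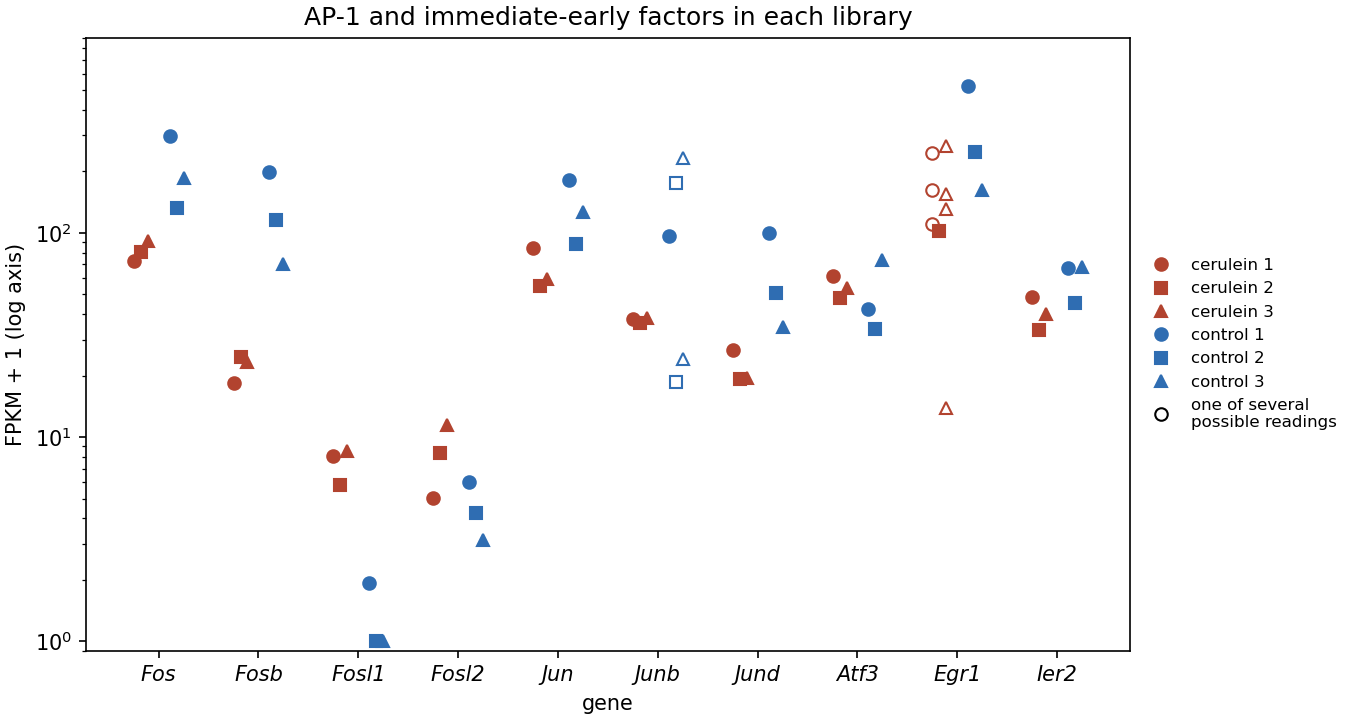
FPKM + 1 on a log axis for each of the 10 genes in the 3 cerulein libraries (red, left) and the 3 control libraries (blue, right), with a symbol for each library. Filled symbols are restored or intact values and open symbols are the readings that remained possible for a value that could not be restored. Fosb lies lower in all 3 cerulein libraries than in any control library, and Fosl1 lies near 0 FPKM in the controls.

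Because Fos, Fosb and Jund fell together, the 250 bases before their transcription starts are shown here, beside those of Jun and of Atf3, which did not pass. The sequences are RefSeq's for the build GRCm38.p6, read 5′ to 3′ on the strand of the gene, and 7 of the 10 genes had an entry (not Fosl1, Egr1 or Ier2). Capitals mark matches, on either strand, to TGANTCA, to the spaced form TGANNTCA, to TGACG (the first bases of that element) or to the CArG box, the site of serum response factor. The windows are chr12:85473640-85473889 for Fos on the plus strand, chr7:19310046-19310295 for Fosb on the minus strand, chr8:70697489-70697738 for Jund on the plus strand, chr4:95052223-95052472 for Jun on the minus strand and chr1:191183334-191183583 for Atf3 on the minus strand.
Fos: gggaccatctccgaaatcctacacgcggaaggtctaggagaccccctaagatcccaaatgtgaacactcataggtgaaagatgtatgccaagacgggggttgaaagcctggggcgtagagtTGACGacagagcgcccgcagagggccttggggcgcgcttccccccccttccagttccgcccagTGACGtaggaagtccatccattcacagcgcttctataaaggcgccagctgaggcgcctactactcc
Fosb: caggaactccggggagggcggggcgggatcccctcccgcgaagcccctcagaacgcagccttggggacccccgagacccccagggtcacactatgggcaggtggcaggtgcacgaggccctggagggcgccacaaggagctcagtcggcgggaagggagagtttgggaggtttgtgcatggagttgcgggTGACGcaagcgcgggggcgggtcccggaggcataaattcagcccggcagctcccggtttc
Jund: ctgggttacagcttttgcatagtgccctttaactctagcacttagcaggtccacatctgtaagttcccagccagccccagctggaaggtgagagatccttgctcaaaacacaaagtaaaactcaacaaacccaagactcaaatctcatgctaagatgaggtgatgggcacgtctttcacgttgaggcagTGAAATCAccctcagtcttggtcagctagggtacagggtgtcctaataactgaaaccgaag
Jun: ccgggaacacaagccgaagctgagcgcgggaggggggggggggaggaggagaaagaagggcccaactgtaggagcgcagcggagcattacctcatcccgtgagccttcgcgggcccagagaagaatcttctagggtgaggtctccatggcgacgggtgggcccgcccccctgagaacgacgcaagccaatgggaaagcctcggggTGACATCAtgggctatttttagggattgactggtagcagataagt
Atf3: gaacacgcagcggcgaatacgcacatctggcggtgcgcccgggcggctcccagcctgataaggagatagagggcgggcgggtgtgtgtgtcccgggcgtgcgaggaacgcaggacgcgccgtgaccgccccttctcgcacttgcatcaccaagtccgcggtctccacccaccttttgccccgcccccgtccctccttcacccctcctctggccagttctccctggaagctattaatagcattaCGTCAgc

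The Fos window held TGACG at 2 places, starting 129 and 66 bases before the start, and the Fosb window held it at 1 place, 60 bases before the start. The Jun window held TGACATCA, which fits the spaced form, 45 bases before the start, and the Jund window held TGAAATCA, 61 bases before the start. The Atf3 window held TGACG on the opposite strand, written CGTCA above. Among the other entries Junb held TGACG at 1 place and Fosl2 held none of the 4 motifs, and no window of the 7 held TGANTCA or a CArG box. The Fosl2 and Atf3 windows lay inside the annotated spans of these genes, downstream of their outermost annotated starts. Sites beyond these 250 bases were not searched, so a missing match holds for the window only. Of 32851 RefSeq promoter windows of this length, 6.75% held TGANTCA, 11.9% the spaced form, 17.8% TGACG and 1.47% a CArG box. A match describes letters only and is neither a bound site nor a cause.

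Fos, the founding member of AP-1 (chromosome 12, 85473890 to 85477273 in GENCODE coordinates for mm10, plus strand), had 71.9, 79.5 and 90.1 FPKM in the cerulein libraries, against 296, 132 and 184 FPKM in the control libraries. All 3 cerulein values were below all 3 control values, and control library 1 was the highest. The means were 80.5 ± 9.17 FPKM in cerulein and 204 ± 83.7 FPKM in controls (SD, n = 3 each). The log2 difference was -1.26 (SE 0.34, limma adjusted p = 0.0312). The call was lost without cerulein library 1, 2 or 3 (adjusted p = 0.0974, 0.136 and 0.0913 by limma), and it held without control library 1, at -0.95 with an adjusted p of 0.0311.

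Fosb, a FOS-family gene known from neurons for its long-lived splice form (chromosome 7, 19302696 to 19310051, minus strand), had 17.5, 23.7 and 22.4 FPKM in cerulein, against 196, 115 and 69.5 FPKM in controls. The groups were far apart: the lowest control library was 2.94 times the highest cerulein library. The means were 21.2 ± 3.27 FPKM in cerulein and 127 ± 64.3 FPKM in controls (SD, n = 3 each), and the log2 difference was -2.41 (SE 0.38, limma adjusted p = 0.00217). Of the 10 genes only Fosb and Fosl1 passed under every alternative in which they could be tested, 15 for each, with Fosb between -2.78 and -1.32. Without control library 1 its difference was -2.04 (limma adjusted p = 0.000932). Fosb, Fosl2, Jund and Atf3 could not be restored, and so not tested, where the placement allowed a spread of 1.5 log2 units between replicates in place of 0.6.

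Fosl1, which encodes FRA-1, a FOS protein without the transactivation domain of Fos (chromosome 19, 5447547 to 5455946, plus strand), had 7.11, 4.84 and 7.55 FPKM in cerulein, against 0.923, 0 and 0 FPKM in controls. In fragments these were 138, 117 and 215 in the cerulein libraries, against 5, 0 and 0 in the control libraries, at a fitted transcript length of 1707 bases (1864 annotated). At the shallower depth of the controls, 3 fragments would have stood for 0.554, 0.484 and 0.442 FPKM. The control values had kept their decimal marks and lay below the smallest reading of any cerulein value, so that the direction did not rest on the restoration. The log2 difference was 2.57 (SE 0.34, limma adjusted p = 0.000852) and depended on the pseudocount, at 4.90 with a pseudocount of 0.1. Without control library 1 it was 2.89 (limma adjusted p = 0.000126). Fosl1 shares 2767 bases of its span with Ccdc85b on the opposite strand, and the sources used here do not state whether counting used strand. Ccdc85b itself could not be restored in all libraries.

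Fosl2, which encodes FRA-2 (chromosome 5, 32135801 to 32157842, plus strand), had 4.02, 7.36 and 10.5 FPKM in cerulein, against 5.06, 3.25 and 2.15 FPKM in controls. Cerulein libraries 2 and 3 were above all controls and cerulein library 1 was not, so the groups overlapped. The log2 difference of 0.86 (SE 0.37) did not pass (limma adjusted p = 0.151). Without control library 1 it was 1.10 and passed (limma adjusted p = 0.0453).

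The make-up of the FOS family differed between the groups, and this comparison within a library does not depend on how libraries are scaled to each other. Fosl1 and Fosl2 together made up 11.1%, 10.6% and 13.8% of the summed FOS-family FPKM in the cerulein libraries, against 1.20%, 1.30% and 0.840% in the control libraries. The groups did not overlap, with means of 11.8% ± 1.74 in cerulein and 1.11% ± 0.242 in controls (SD, n = 3 each). Fosb made up 17.4%, 20.5% and 17.2% in cerulein, against 39.4%, 46.0% and 27.1% in controls. The share of Fos overlapped, at 71.5%, 68.9% and 69.0% in cerulein and 59.4%, 52.7% and 72.0% in controls. Fos was the most abundant FOS transcript per length in every library and Fosb came next in every library. These shares were chosen after their values were seen and are given without a test. An exact permutation test of 3 against 3 cannot give a two-sided p below 0.1.

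**Figure D2:**
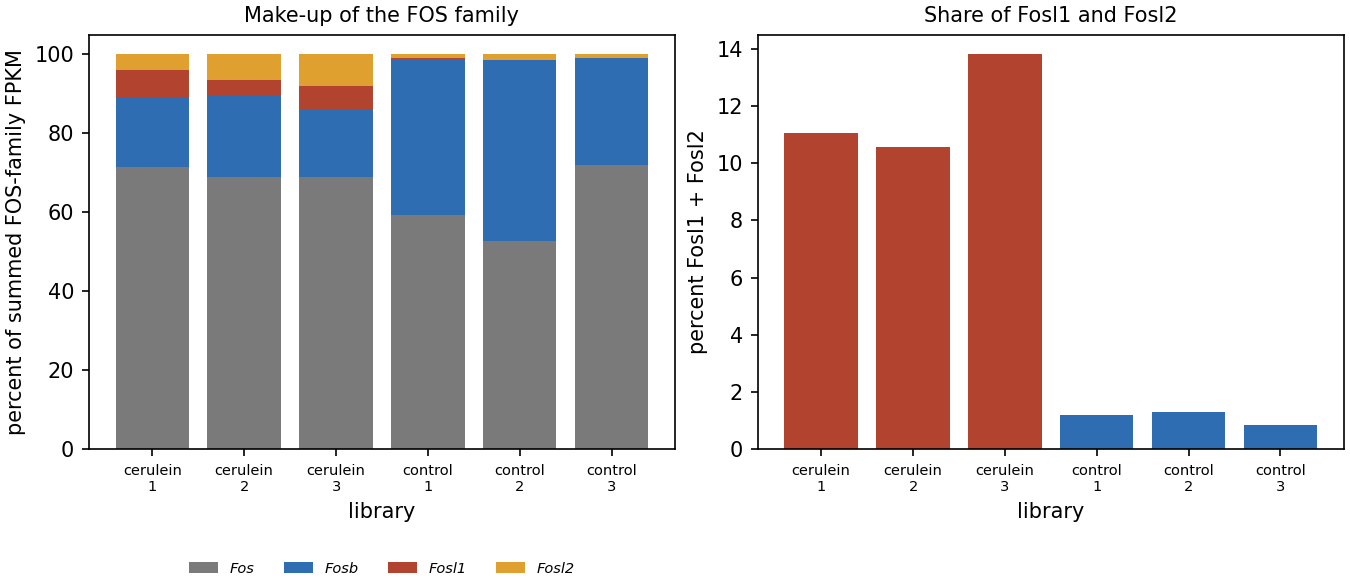
The left panel gives the share of Fos, Fosb, Fosl1 and Fosl2 in the summed FOS-family FPKM of each library (percent, stacked bars), and the right panel the share of Fosl1 and Fosl2 together (percent, bars from 0). Cerulein libraries stand left of control libraries in both, and the share of Fosl1 and Fosl2 is between 10.6% and 13.8% in cerulein and between 0.840% and 1.30% in controls.

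Of the JUN partners, Jund fell, Jun did not pass and Junb could not be restored. Jund, usually the steadily expressed JUN gene (chromosome 8, 70698949 to 70700616, plus strand), had 25.6, 18.2 and 18.6 FPKM in cerulein, against 98.8, 49.6 and 33.5 FPKM in controls. All cerulein values were below all control values, with control library 1 again the highest. The means were 20.8 ± 4.17 FPKM in cerulein and 60.6 ± 34.1 FPKM in controls (SD, n = 3 each). The log2 difference was -1.37 (SE 0.39, limma adjusted p = 0.0368). It was lost without cerulein library 1, 2 or 3 or control library 2 (adjusted p = 0.0651, 0.150, 0.143 and 0.0852 by limma), and was -0.95 without control library 1 (limma adjusted p = 0.0338). The whole numbers of fragments in Jund fitted a transcript of 2878 bases, against 1668 bases annotated, and the RefSeq start used for the promoter above lies upstream of the annotated one. Gm11175, an antisense transcript that shares 919 bases with the annotated gene and could not be restored, makes its values uncertain.

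Jun, the founding gene of the JUN family (chromosome 4, 95049034 to 95052222, minus strand), had 82.8, 53.7 and 58.1 FPKM in cerulein, against 179, 87.0 and 125 FPKM in controls. The groups did not overlap, but only narrowly: the lowest control library was 1.05 times the highest cerulein library. The log2 difference of -0.96 (SE 0.34) did not pass (limma adjusted p = 0.0850). Jun shares 689 bases with the antisense transcript Junos. Junb, a JUN gene often induced together with Fos (chromosome 8, 84974484 to 84978718, minus strand), had 37.0, 35.2 and 37.4 FPKM in cerulein and 95.5 FPKM in control library 1. Control library 2 was either 17.5 or 175 FPKM (posterior 0.77 and 0.23) and control library 3 either 23.2 or 232 FPKM (posterior 0.79 and 0.21). With the lower readings the groups overlapped and the log2 difference was 0.10, and with the higher readings it was -2.08, so Junb was not tested and its direction is unknown. Junb shares 351 bases with Prdx2 on the opposite strand.

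The FOS family summed to 101, 115 and 131 FPKM in the cerulein libraries, against 498, 250 and 256 FPKM in the control libraries, and Jun and Jund summed to 108, 72.0 and 76.7 FPKM in cerulein, against 278, 137 and 158 FPKM in controls. On the deposited scale both sums were lower in every cerulein library than in any control library. Their ratio, FOS family over Jun and Jund, was 0.927, 1.60 and 1.70 in cerulein and 1.79, 1.83 and 1.62 in controls, and the groups overlapped. With Junb added, the ratio did or did not overlap depending on which reading of Junb was taken, and no test was made because Junb was not restored.

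Atf3, a stress-induced bZIP factor of the related ATF family that can pair with JUN proteins (chromosome 1, 191170296 to 191218039, minus strand), had 60.7, 46.9 and 52.9 FPKM in cerulein, against 41.5, 32.8 and 72.3 FPKM in controls. The groups overlapped, and control library 3 was the highest of all 6. The log2 difference was 0.20 (SE 0.34, limma adjusted p = 0.732), and it was -0.04 without control library 2. Atf3 relative to Fos in the same library was 0.844, 0.591 and 0.587 in cerulein, against 0.140, 0.249 and 0.392 in controls, which did not overlap. This ratio too was chosen after its values were seen. The span of Atf3 also holds Gm24748, a small RNA gene on the opposite strand.

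Egr1, a zinc-finger immediate-early factor outside AP-1 that serum response factor and its partners induce (chromosome 18, 34859823 to 34864984, plus strand), was present as 2 transcripts and could not be restored in cerulein libraries 1 and 3. Its most probable levels were 109, 101 and 129 FPKM in cerulein, against 520, 247 and 161 FPKM in controls, and at these levels the groups did not overlap. Other readings were possible, up to 246 FPKM in cerulein library 1 and between 12.9 and 266 FPKM in cerulein library 3. Over all these readings the log2 difference lay between -2.35 and -0.43, so that its mean was lower in cerulein throughout while the overlap of single libraries was undecided, and Egr1 was not tested. Ier2, a short immediate-early gene whose product is a nuclear protein (chromosome 8, 84661331 to 84662852, minus strand), had 47.4, 32.3 and 39.0 FPKM in cerulein, against 66.2, 44.2 and 67.3 FPKM in controls. The groups overlapped and the log2 difference of -0.56 (SE 0.31) did not pass (limma adjusted p = 0.247).

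The level of every factor is relative to the other transcripts of its library, and the digestive enzymes took a far smaller part of the cerulein libraries. The 17 restored acinar markers of 18 summed to between 65580 and 116922 FPKM in cerulein, against between 470837 and 496439 FPKM in controls. When each library was scaled to its sum outside the acinar marker list, the median log2 difference of all genes moved to 0.84, and 96.8% of the genes that passed were higher, against 53.5% on the deposited scale. On that scale Fosb remained lower (-1.32, limma adjusted p = 0.0162) and Fosl1 higher (3.12, limma adjusted p = 5.2e-05). Fos and Jund no longer passed, with log2 differences of -0.14 and -0.29 (limma adjusted p = 0.763 and 0.558). Fosl2 and Atf3 passed as higher, at 1.76 and 1.30 (limma adjusted p = 0.00404 and 0.0107). Jun and Ier2 turned positive, at 0.15 and 0.54 (limma adjusted p = 0.744 and 0.198). Relative to the shifted median, Fos, Fosb, Jun, Jund and Ier2 were still below it, by -0.98, -2.16, -0.69, -1.12 and -0.30, and Fosl1, Fosl2 and Atf3 were above it, by 2.29, 0.92 and 0.46. When libraries were instead scaled by the median ratio of tested genes, Fos and Jund passed, at -1.28 and -1.39 (limma adjusted p = 0.0303 and 0.0356). The data are from bulk samples, in which fewer cells of a type and less RNA per cell cannot be told apart.

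**Figure D3:**
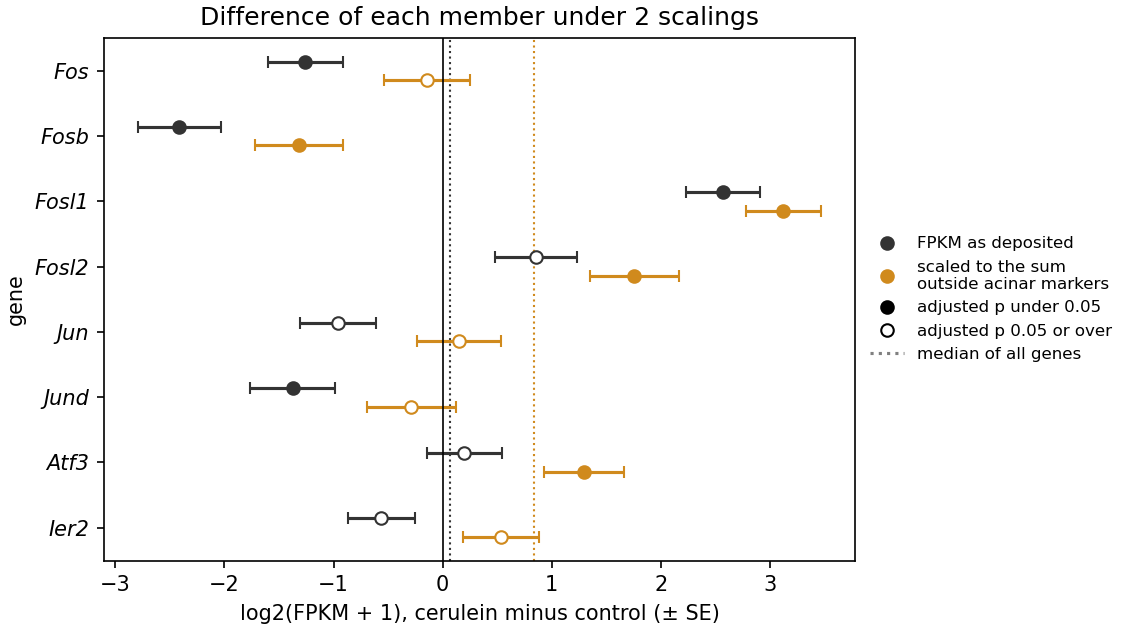
Log2(FPKM + 1) of cerulein minus control for the 8 genes tested, with SE as bars, on the deposited scale (black) and scaled to the sum outside acinar markers (orange). Filled points passed at an adjusted p under 0.05, and dotted lines are the medians of all genes tested, 0.07 and 0.84. Fosb and Fosl1 keep their side of 0 and pass on both scales.

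Acinar markers were the most abundant of the marker lists in every library, and markers of other cells were present too. Of 17 acinar markers tested 16 fell (led by Rnase1, Amy2a5 and Pnlip at -3.35, -3.30 and -3.28) and 1 did not pass. Of the macrophage and leukocyte markers 5 of 14 could be tested, and all 5 rose (Coro1a, Cd68, Csf1r, Itgam and Mrc1), with a list sum of 16.4 to 46.6 FPKM in cerulein and 1.75 to 10.7 FPKM in controls. The count of 5 became 2 without cerulein library 2 or control library 2, 1 without cerulein library 3, 3 without control library 3 and 1 with no filter on low values, and Coro1a was called in each of these. Of 7 fibroblast and stellate markers tested 4 rose (Col1a1, Col1a2, Postn and Fbn1), with a sum of 121 to 200.2 FPKM in cerulein and 0.785 to 113 FPKM in controls, and Col5a1 was at 0 in 2 control libraries. Col1a1 and Col1a2 lost their calls without cerulein library 1 or 3 or control library 2 or 3, which left 2 of the 7, and without control library 1 all 7 rose. With a pseudocount of 0.1 or no filter 2 rose, and with scaling outside acinar markers or limma-voom 6 rose. Of 5 ductal markers tested 3 rose (Cldn4, Krt19 and Krt7, at 5.22, 3.92 and 1.66). The single endothelial and the single islet marker that could be tested (Eng and Gcg) did not pass. Their list sums were 3.50 to 4.39 and 9.03 to 14.8 FPKM in cerulein, against 0 to 18.5 and 13.2 to 19.7 FPKM in controls. Control library 1 stood apart from the other controls: it held 47.1 FPKM of Col1a1 and 14.3 FPKM of Eng, against 0.899 and 0.117 FPKM of Col1a1 and 0 FPKM of Eng in control libraries 2 and 3. It also had the highest control level of Fos, Fosb, Fosl1, Fosl2, Jun and Jund, and of Egr1 at every possible reading, but not of Atf3 or Ier2. Its macrophage and leukocyte sum, 10.7 FPKM, was the highest of the controls too, against 1.75 and 1.92 FPKM in control libraries 2 and 3. The part of these other cells in the results was not tested. Without that library Fos, Fosb, Fosl1 and Jund still passed in their directions.

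**Figure D4:**
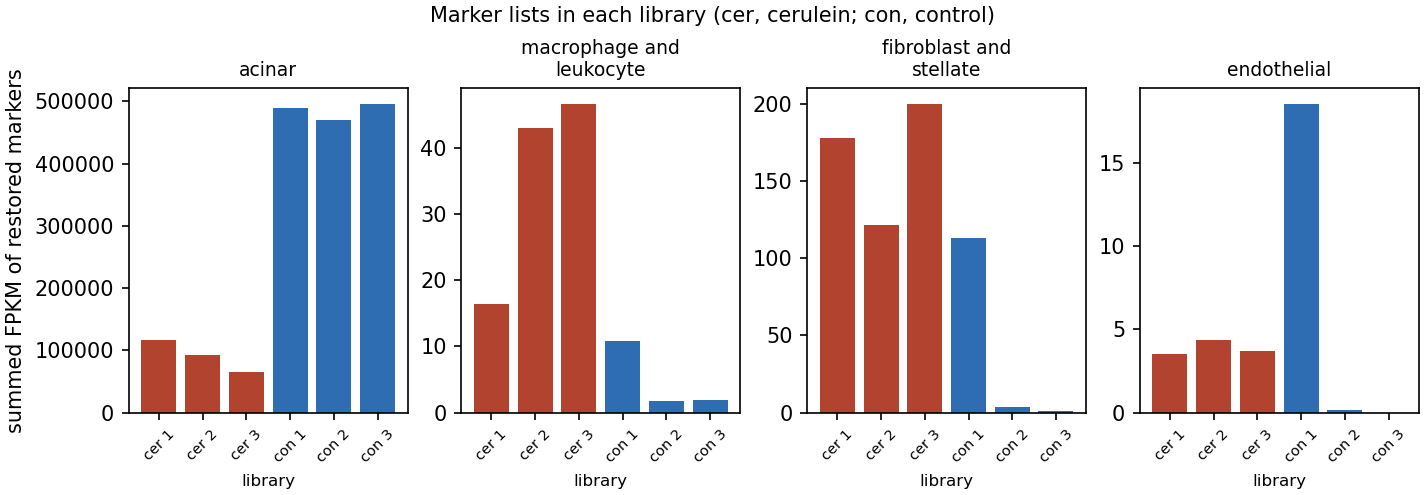
Summed FPKM of the restored markers of 4 cell types in each library, cerulein (red) left of control (blue), with bars from 0 and an axis of its own for each list. The acinar sum is at most 116922 FPKM in cerulein and at least 470837 FPKM in controls, and the endothelial sum is highest in control library 1, at 18.5 FPKM.

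**Figure D5:**
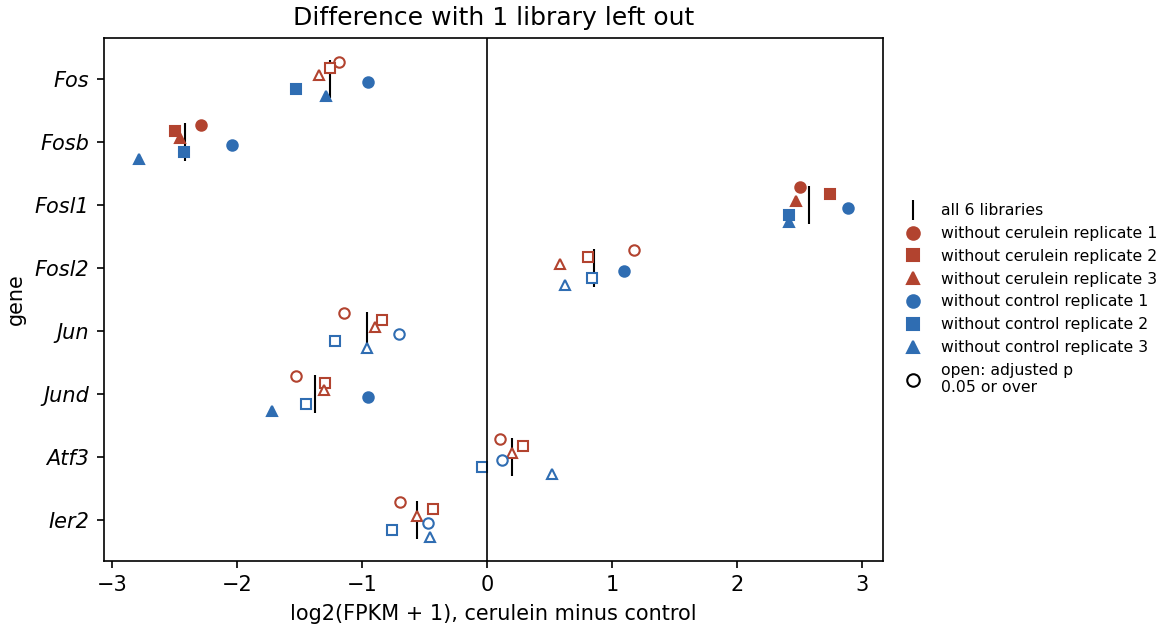
Log2(FPKM + 1) of cerulein minus control for the 8 genes tested, with all 6 libraries (vertical tick) and with each library left out in turn (symbols, red for cerulein and blue for control). Open symbols did not pass: the calls of Fosb and Fosl1 hold in all 6 cases, and those of Fos and Jund are lost when any 1 of the 3 cerulein libraries is left out.

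Of 32 other immediate-early genes 14 could be tested, of which 6 rose and 8 missed the threshold. Their median log2 difference was 1.25. By limma 0 fell, although 2, Btg2 and Sgk1, were lower at an unadjusted p under 0.05, and limma-voom on the restored fragments also called 0 as lower. Btg2 had 43.1, 41.5 and 49.7 FPKM in cerulein, against 73.3, 78.8 and 78.2 FPKM in controls, without overlap (limma adjusted p = 0.0840). Sgk1 had 3.96, 8.72 and 8.91 FPKM in cerulein, against 7.59, 22.5 and 21.2 FPKM in controls (limma adjusted p = 0.121). Cyr61, a secreted matrix protein gene and a target of YAP and serum response factor, had 37.8, 32.7 and 39.1 FPKM in cerulein, against 4.30, 9.51 and 15.0 FPKM in controls (log2 difference 1.96, SE 0.39, limma adjusted p = 0.0073). Nfkbia, the NF-kappa B inhibitor gene, had 27.1, 49.4 and 42.4 FPKM in cerulein, against 11.5, 12.0 and 9.51 FPKM in controls (1.72, SE 0.31, limma adjusted p = 0.00481). Ier5, a regulator of heat shock factor, rose by 1.69 (limma adjusted p = 0.0113). The groups did not overlap for Cyr61, Nfkbia or Ier5, and Ier5 lost its call without cerulein library 2 or 3 and with no filter on low values. Among related bZIP factors 6 of 17 could be tested and all 6 missed the threshold, with a median of 0.23. By limma 0 of these 6 also had an unadjusted p under 0.05, and limma-voom called 0.

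Among upstream kinases and factors, 16 of 23 could be tested, of which 2 rose and 14 missed the threshold. Their median log2 difference was 0.42. Map2k3, the kinase that activates p38, had 20.5, 16.4 and 13.8 FPKM in cerulein, against 4.48, 3.05 and 2.67 FPKM in controls (log2 difference 2.03, SE 0.30, limma adjusted p = 0.00157). Mapkapk2, a kinase downstream of p38, had 20.7, 21.7 and 20.7 FPKM in cerulein, against 13.0, 7.65 and 7.73 FPKM in controls (1.11, SE 0.30, limma adjusted p = 0.0296). The groups did not overlap for either gene, and Mapkapk2 lost its call in 6 of 16 alternatives, among them leaving out any cerulein library or control library 2 or 3. Serum response factor itself, Srf, had 14.0, 7.67 and 7.71 FPKM in cerulein, against 10.8, 2.96 and 4.64 FPKM in controls, and did not pass (limma adjusted p = 0.287).

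Genes known as AP-1 targets could be tested in 5 of 18 cases, of which 3 rose (Timp1, Il6 and Plaur) and 2 did not pass (Plau and Hbegf). Timp1, an inhibitor of matrix metalloproteinases, had 6.63, 10.6 and 17.2 FPKM in cerulein and was listed at 0 in all 3 control libraries (limma adjusted p = 0.000112). Il6, a cytokine gene, had 1.75, 2.80 and 3.65 FPKM in cerulein, against 1.19, 0 and 0 FPKM in controls (limma adjusted p = 0.0186). Plaur, the urokinase receptor gene, had 1.48, 3.58 and 2.68 FPKM in cerulein, against 0.424, 0.186 and 0.17 FPKM in controls (limma adjusted p = 0.00798). The cerulein values lay above all control values in these 3 genes. The control libraries were shallower, and the level that a 0 could hide was worked out for Fosl1 but not for Timp1 or Il6. Il6 lost its call without cerulein library 2 or 3 or control library 2 or 3, and Plaur without cerulein library 2. Both also lost it with no filter on low values (limma adjusted p = 0.0977 and 0.0552). Fibroblasts and leukocytes, with marker counts as given above, also express these genes, and their part was not tested. Of 12 heat shock genes associated with tissue dissociation 3 could be tested: Hspb1, a small heat shock protein gene, rose (84.0, 70.2 and 60.6 FPKM in cerulein, against 10.3, 8.53 and 13.7 FPKM in controls, limma adjusted p = 0.000398), and Dnajb1 and Dnaja1 did not pass.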

How the data were processed

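The authors deposited 1 table of FPKM for 50660 transcripts of 21949 genes, with 1 column per library. Per the submitters' processing notes, fastp, HISAT2, featureCounts, DESeq2 and the build mm10 were used, and none of these sources names the program behind the FPKM. The deposited values were recorded as a unit other than FPKM, because between 18.0% and 21.4% per library had lost their decimal mark, and the test planned for FPKM was applied to restored values. Multiplied by effective transcript length (length minus mean fragment length plus 1) and by a library constant, an FPKM gives back whole fragments, and in 78.8% to 82.3% of intact values it lay within 0.01 of one, against 2% by chance. The mean fragment length and the constant had been fitted to these same intact values, so this share is not an independent check. Candidate readings were scored on closeness to whole fragments and to replicates of the same group (spread 0.6 log2 units, with a 10% tail of 3), with lengths from GENCODE M21 that could differ by up to 1500 bases. Values that needed an exponent were taken as 0. Of 6665 intact values treated as lost, 4691 were placed, 98.6% of them correctly. This check used only genes whose transcripts were all below 1 FPKM. It therefore does not give the accuracy at the higher levels of most members. The placement favours readings near the other replicates, so p-values may be too small. At a transcript length of 2000 bases, 1 FPKM corresponded to 23.1, 28.9 and 34.0 fragments in the cerulein libraries and 6.45, 7.39 and 8.09 in the controls. Such counts cover counting error only.

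Gene sums restored in all 6 libraries and at 1 FPKM or more in at least 3 were compared as log2(FPKM + 1) with limma 3.58.1 (R 4.3.3, lmFit and eBayes with trend, two-sided, no replicate block), with Benjamini-Hochberg adjustment over all 5579 genes. A difference on this scale understates the change of low genes. A reading was called possible at a posterior of 0.01 or more. The scripts ran in Python 3.11.15 and were tested on simulated data. The alternatives were a pseudocount of 0.1, no filter, a filter of 5 FPKM, 2 other scalings, a replicate block, a posterior of 0.99, a spread of 1.5, limma-voom, each library left out and, added after the data were seen, the most probable reading of every gene. All 10 members were named, and from every other list up to 3 genes per direction with the largest change among those that passed, plus genes behind a count of 5 or fewer. Srf, Col5a1, Hbegf and Plau were named outside this rule, after their values were seen, as were the markers of 1 library. Some genes of the lists are not reported here. The members and lists were chosen with earlier results of these data known.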

Additional observations from a re-analysis of the deposited data

How the results depend on the processing

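Of the 4 members called, Fosb and Fosl1 passed under every alternative in which they were tested, and Fos and Jund did not. The count of 4 members became 2 with no filter, 2 of 4 tested with a placement spread of 1.5, 2 of 10 with the most probable reading of every gene, and 2 to 5 with 1 library left out. The genes called over the whole table, 840 (449 higher and 391 lower), became 417 (243 and 174) with no filter, 548 (222 higher) with a filter of 5 FPKM, 3119 (3018 and 101) with scaling to the sum outside acinar markers, 472 (249 and 223) with the spread of 1.5 and 1900 (1141 and 759) with the most probable reading. With 1 library left out they numbered 308 to 1426 (170 to 814 higher, 138 to 612 lower). The counts of the other lists moved too, but not all under the same settings. With scaling outside acinar markers, 4 related bZIP factors, 11 other immediate-early genes, 13 upstream genes and 3 heat shock genes were called, and with the most probable reading 3, 12, 4 and 5, beside 6 AP-1 targets. With no filter 1 upstream gene and 1 AP-1 target were called, with a filter of 5 FPKM 1 AP-1 target and 2 heat shock genes, with the spread of 1.5 1 AP-1 target, and with limma-voom 4 upstream genes. With 1 library left out the ranges were 0 to 2 bZIP factors, 2 to 10 other immediate-early genes, 1 to 7 upstream genes, 1 to 4 AP-1 targets and 1 to 2 heat shock genes. Jun and Ier2 turned positive with scaling outside acinar markers, at 0.15 and 0.54, and Atf3 turned negative without control library 2, with a range of -0.042 to 0.52 over the libraries left out. The log2 difference of the FOS to JUN family ratio was -0.61 with the most probable reading of Junb, -0.36 without Junb, 0.093 with its highest reading and between -0.75 and -0.39 with 1 library left out. Outside the scaling, where the sum of each library changes, and the filters, where fewer or more genes are tested, the cause of these changes was not tested.

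The replicate numbers were not shown to pair the samples: deviations of same-numbered libraries correlated at 0.18, 0.17 and -0.05. With a replicate block 903 genes, the same number of members, 4, and 2 heat shock genes were called.

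Depth limits Fosl1 in the controls, and the lost marks limit Junb and Egr1. Only restored genes were tested, which leans towards genes whose replicates lie close together.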
